A study of Arabidopsis thaliana with 12 samples.

Results

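Signal was followed for 4 antimicrobial peptide genes of Arabidopsis defence, the plant defensins PDF1.2 (AT5G44420) and PDF1.2b (AT2G26020) and the thionins THI2.1 (AT1G72260) and THI2.2 (AT5G36910). They were chosen by name, through the gene annotation of the array, and each was read by 1 probe set, so the 4 members are 4 of the 22746 probe sets left once controls were set aside. All 4 passed the filter on dim signal, which kept 15923 probe sets for testing.

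RNA came from the aerial parts of 2-week-old plants and was read on 12 Affymetrix ATH1 arrays, 2 for each of 6 genotypes. The genotypes were wild-type Col-0 (WT), cpr5, npr1, the combination cpr5npr1, cpr5 with scv1 (cpr5scv1), and cpr5npr1 with svi1 (cpr5npr1svi1). All were grown at 23 C and 70% humidity with 16 h of fluorescent light a day, and no pathogen or hormone treatment is named. Thus 4 of the 6 genotypes carried cpr5, 3 carried npr1, and scv1 and svi1 were each present in 1 genotype, on a cpr5 background. The labels do not name the alleles. They describe cpr5npr1 as fully resistant to P. parasitica, and cpr5scv1 as a suppressor line as susceptible to that pathogen as the wild type, slightly more susceptible to P. syringae and resistant to B. cinerea; cpr5npr1svi1 is given only as a triple mutant. Whether the arrays of a genotype stand for plants grown apart is not stated, so each p-value reflects no more than array-to-array spread, part or all of which may be technical.

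Plant defensins and thionins are small, cysteine-rich, secreted peptides that act on the membranes of fungi and bacteria. PDF1.2 is the standard transcript marker of the jasmonate and ethylene branch of defence, in which ERF-type transcription factors act downstream of both hormones, and which salicylic acid signalling through NPR1 can hold down. THI2.1 is a thionin induced by jasmonate and by fungal infection. THI2.2 is its close relative, and whether THI2.2 responds to jasmonate was not tested here. The cpr5 mutation gives spontaneous lesions and constantly active defence, and NPR1 mediates responses to salicylic acid.

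THI2.2 was the member that separated the genotypes: its signal was 6.25-fold lower in cpr5 than in WT and 9.22-fold lower in cpr5npr1 than in npr1, and it was low in every array that carried cpr5. The difference between cpr5 and WT, -2.64 on the log2 scale, was -3.63 without replicate 1 of WT and -1.66 without replicate 2. PDF1.2 and PDF1.2b had their highest mean signal in cpr5npr1svi1 and their second highest in cpr5scv1, but the arrays of 1 genotype differed so much that no difference in either gene passed the test in the fit of 6 genotype means. With the replicate number added as a block, 1 did: PDF1.2 was higher in cpr5npr1svi1 than in WT (limma adjusted p = 0.0287). THI2.1 had signals of 7.32 to 38.7 and no difference in it passed. A difference was called at an adjusted p below 0.05 in limma, with Benjamini-Hochberg adjustment over the 15923 probe sets. All values below are MAS5 signal, a linear brightness on which each array has been scaled to a common mean, and changes are given as differences of log2 signal. A level is compared between arrays for one probe set, never between probe sets.

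The technical frame is common to all 4 genes. Median signal ran from 36.8 to 43.5 over the arrays, and from 76.9% to 79.5% of probe sets lay above a background signal of 7.76, the 95th percentile of 27 bacterial control sets. CPR5 and NPR1 had 0 named probe sets, so the labels were not checked against the mutated genes. Of the 7 listed marker genes of green tissue and the 4 of flowers, 0 had a named probe set, so the labelled tissue was not checked that way. Of 6 root markers, 2 were named: EXPA7, a root hair expansin, lay between 2.00 and 18.3, and PYK10, a beta-glucosidase best known from roots, lay between 165 and 836.

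PDF1.2 signal was 4.48 and 15.2 in the WT arrays, 10.6 and 20.0 in cpr5, and 1.80 and 82.0 in npr1 (replicate 1 first, here and below). It was 24.5 and 29.6 in cpr5npr1, 24.0 and 95.7 in cpr5scv1, and 38.4 and 177 in cpr5npr1svi1. Replicate 1 of WT and replicate 1 of npr1 lay below background, while all 8 arrays with cpr5 lay above it. The WT and cpr5 arrays lay below all arrays of cpr5npr1, cpr5scv1 and cpr5npr1svi1, as in 1.53% of all probe sets tested. That split was chosen after the values were seen and leaves out npr1, so the share is a description and not a test. Of the npr1 arrays, replicate 1 was the lowest of all 12, and replicate 2 was exceeded only by replicate 2 of cpr5scv1 and of cpr5npr1svi1.

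The mean PDF1.2 signal was 107 ± 97.7 (SD, n = 2) in cpr5npr1svi1, 59.9 ± 50.7 in cpr5scv1, 27.1 ± 3.54 in cpr5npr1, 15.3 ± 6.65 in cpr5, 41.9 ± 56.7 in npr1 and 9.82 ± 7.55 in WT. On the log2 scale the order from low to high was WT, npr1, cpr5, cpr5npr1, cpr5scv1 and cpr5npr1svi1. No genotype differed from the next in that order beyond the spread (limma adjusted p from 0.883 to 1.000). Here, as in all bulk tissue, fewer cells of a type and less RNA per cell cannot be told apart.

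**Figure D1:**
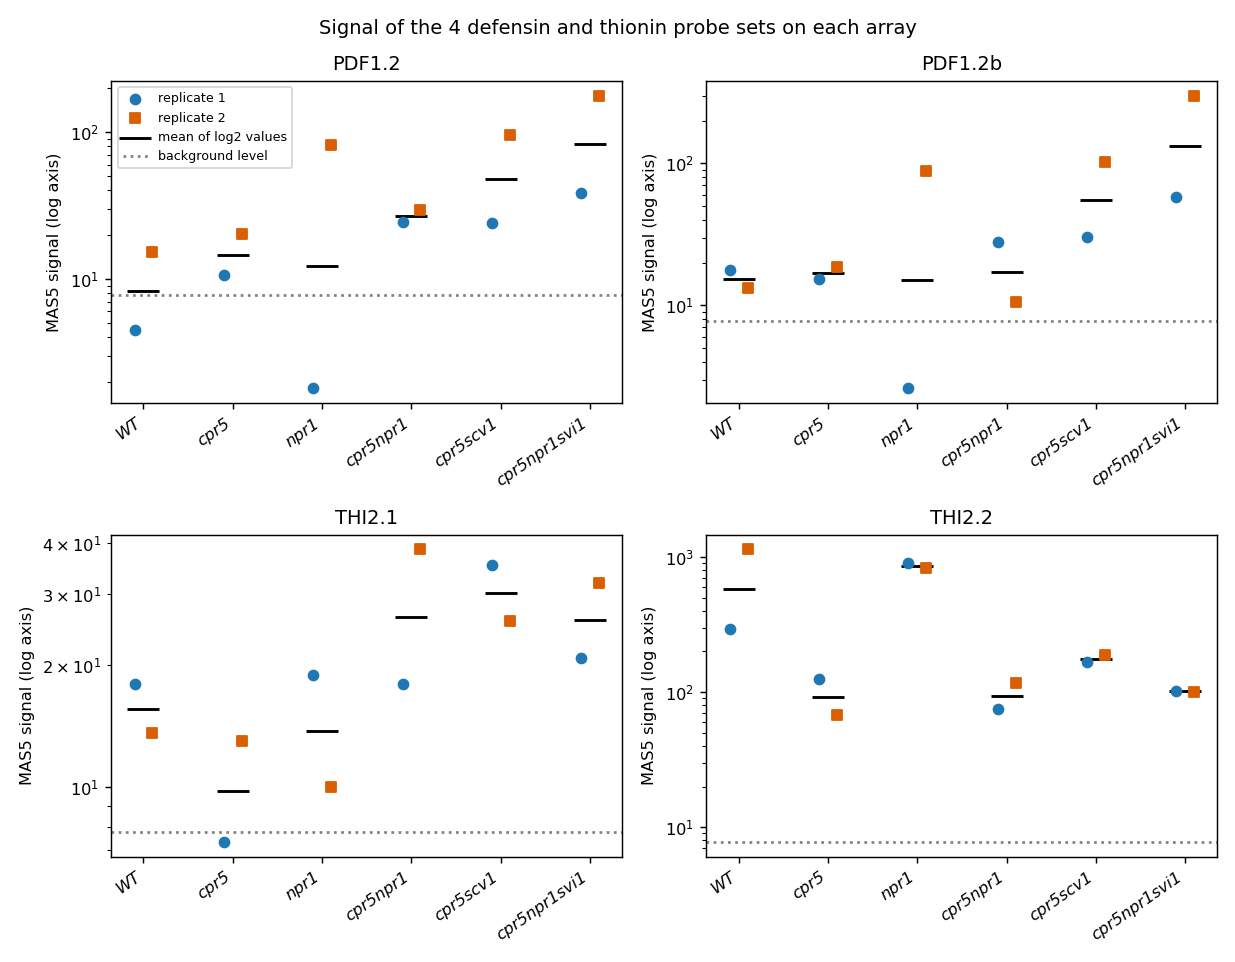
MAS5 signal (log axis) of PDF1.2, PDF1.2b, THI2.1 and THI2.2 on each of 12 arrays, by genotype; circles are replicate 1, squares replicate 2, bars the mean of the log2 values and the dotted line the background signal of 7.76. The THI2.2 arrays of WT and npr1 (291 to 1137) all sit above those of the 4 genotypes with cpr5 (68.1 to 187), whereas the npr1 arrays of PDF1.2 lie at 1.80 and 82.0.

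PDF1.2b signal was 17.7 and 13.2 in WT, 15.3 and 18.6 in cpr5, and 2.603 and 88.4 in npr1. It was 28.1 and 10.6 in cpr5npr1, 30.2 and 102 in cpr5scv1, and 58.3 and 300 in cpr5npr1svi1. The WT, cpr5 and cpr5npr1 arrays overlapped, and the 4 arrays of cpr5scv1 and cpr5npr1svi1 lay above all of them, as in 2.36% of all probe sets tested. This split too was chosen after the values were seen and leaves out npr1. Replicate 1 of npr1 was again the lowest array, below background, and replicate 2 was again exceeded only by replicate 2 of cpr5scv1 and of cpr5npr1svi1. The suffix _x_at of this probe set marks probes that also match other transcripts, and PDF1.2, PDF1.2b and PDF1.2c are near-identical in sequence, so the signals of these genes cannot be fully told apart. The order on the log2 scale was npr1, WT, cpr5, cpr5npr1, cpr5scv1 and cpr5npr1svi1, and no neighbours in it differed beyond the spread (limma adjusted p from 0.688 to 1.000).

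The 2 defensin probe sets moved together from array to array. Over the 12 arrays their log2 signals had a Pearson r of 0.906 and a Spearman rho of 0.818, and once the genotype means were taken out r was 0.900. These are descriptions: the points share 6 genotypes, 2 replicate numbers and possibly probes. Neither thionin followed the defensins, with r of 0.27 and 0.19 for THI2.1 and -0.35 and -0.32 for THI2.2, against PDF1.2 and PDF1.2b in that order.

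The spread between the arrays of a genotype was the main feature of the defensins. The pooled SD within genotypes was 1.90 log2 units for PDF1.2 and 1.75 for PDF1.2b, against a median of 0.26 over all probe sets tested; 99.97% and 99.92% of probe sets had a smaller one. It was 0.54 for THI2.1, above 90.9% of probe sets, and 0.65 for THI2.2, above 94.7%. The defensin arrays of npr1 differed by 5.51 log2 units (45.7-fold) in PDF1.2 and by 5.09 (34.0-fold) in PDF1.2b. By contrast the cpr5npr1 arrays differed by 0.27 in PDF1.2, and the cpr5 arrays by 0.28 in PDF1.2b.

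PDF1.2 was higher in replicate 2 than in replicate 1 in 6 of 6 genotypes, by a median of 1.88 log2 units and a range of 0.27 to 5.51. Of all probe sets tested, 9.17% were higher in replicate 2 in all 6 genotypes. PDF1.2b was higher in replicate 2 in 4 of 6 genotypes, and each thionin in 3 of 6. What distinguishes the replicate numbers is not stated in the labels.

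**Figure D2:**
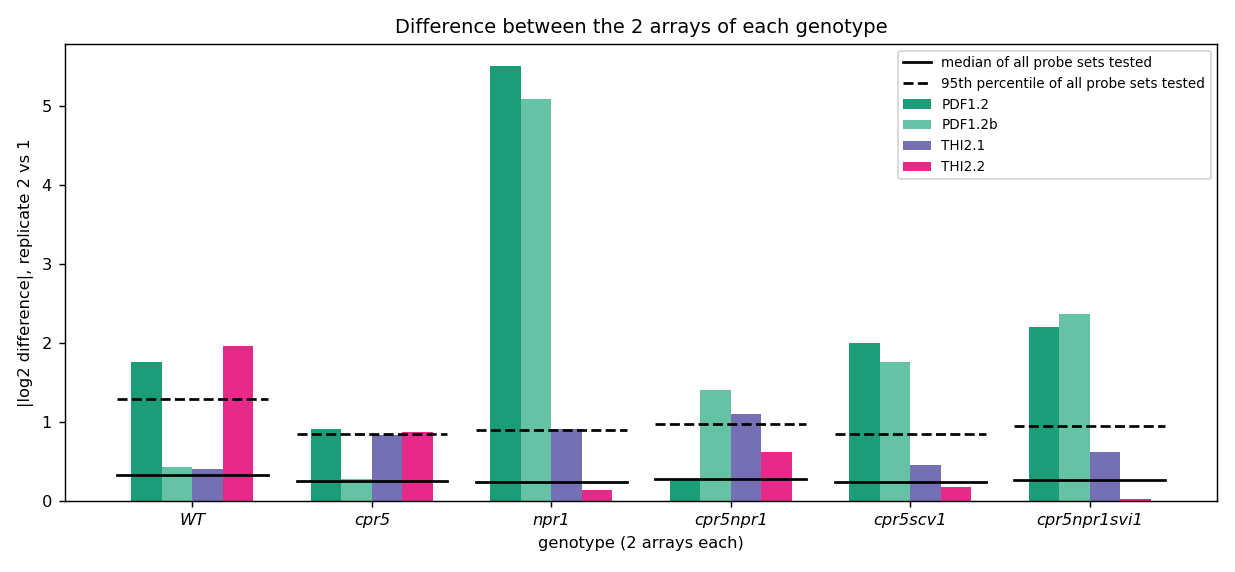
Absolute log2 difference between replicate 2 and replicate 1 in each genotype for the 4 members (bars, 1 difference each); solid lines are the median and dashed lines the 95th percentile of all 15923 probe sets tested. The npr1 bars of PDF1.2 and PDF1.2b reach 5.51 and 5.09, and both defensins pass the dashed line in cpr5scv1 and cpr5npr1svi1 as well.

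The first comparison asked what cpr5 alone does. PDF1.2 was 0.83 log2 units higher in cpr5 than in WT (SE 1.44, limma adjusted p = 0.799) and PDF1.2b 0.14 higher (SE 1.33, adjusted p = 0.968). The 95% intervals, -2.37 to 4.02 and -2.80 to 3.09, leave room for large changes in either direction. They include the difference between replicate numbers. With the replicate number as a block the SEs were 0.93 and 1.17, and neither difference passed (limma adjusted p = 0.598 and 0.953). The single mutant npr1 differed from WT by 0.56 in PDF1.2 and by -0.0084 in PDF1.2b (adjusted p = 1.000 for both), with replicate 1 lower than WT and replicate 2 higher in each gene. Adding npr1 to cpr5 changed PDF1.2 by 0.88 and PDF1.2b by 0.032 (adjusted p = 1.000 for both).

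In cpr5npr1svi1 the defensins had their largest differences from WT. PDF1.2 was 3.32 log2 units higher (SE 1.44, 95% interval 0.13 to 6.51, adjusted p = 0.175) and PDF1.2b 3.12 higher (SE 1.33, 0.17 to 6.06, adjusted p = 0.168). Within replicate 1 the differences were 3.10 and 1.72, and within replicate 2 they were 3.54 and 4.51, so all 4 had the same sign. With the replicate number as a block the adjusted p was 0.0287 for PDF1.2 and 0.0853 for PDF1.2b. That block also raised the share of all probe sets called in this comparison from 12.0% to 21.4%, and with it 12.2% were called as higher.

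The npr1 arrays set much of the spread that these tests used. With the npr1 genotype left out, a choice made after its arrays were seen to differ, the cpr5npr1svi1 difference from WT had an adjusted p of 0.0365 for PDF1.2 and 0.0339 for PDF1.2b, and with the block as well 0.00149 and 0.0212. The sizes varied with the setting and with the arrays kept. After adding 32 to every signal, which shrinks log2 differences between arrays, the PDF1.2 difference was 1.55 and the PDF1.2b difference 1.87 (limma adjusted p = 0.110 and 0.0732). Without replicate 2 of cpr5npr1svi1 they were 2.22 and 1.93. The PDF1.2 difference was 2.44 without replicate 1 of WT, its WT array below background, and 4.20 without replicate 2 of WT. The part of dim WT signal in these sizes was not tested. Here and below, where 1 array of a compared genotype is left out, the array that remains is assumed to vary as the arrays of the other genotypes do.

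In cpr5scv1 PDF1.2 was 2.54 log2 units above WT (SE 1.44, adjusted p = 0.240), by 2.42 within replicate 1 and 2.66 within replicate 2. The adjusted p was 0.0576 with the block, 0.0639 without the npr1 genotype and 0.00284 with both changes. PDF1.2b was 1.87 above WT (SE 1.33, adjusted p = 0.356). For cpr5npr1 the PDF1.2 difference from WT was 1.71 (adjusted p = 0.558), and it passed only when the npr1 genotype was left out and the block added (adjusted p = 0.0334).

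What scv1 and svi1 did on top of their parent lines was not resolved for the defensins. PDF1.2 was 1.71 log2 units higher in cpr5scv1 than in cpr5 (95% interval -1.48 to 4.91, adjusted p = 0.763) and 1.61 higher in cpr5npr1svi1 than in cpr5npr1 (-1.58 to 4.80, adjusted p = 0.840). PDF1.2b was 1.72 higher in the first comparison (-1.22 to 4.66, adjusted p = 0.729) and 2.94 higher in the second (-0.0040 to 5.88, adjusted p = 0.485). Each of these 4 differences was above 0 within replicate 1 and within replicate 2.

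THI2.1 signal was 18.0 and 13.6 in WT, 7.32 and 13.0 in cpr5, and 18.9 and 10.0 in npr1. It was 18.0 and 38.7 in cpr5npr1, 35.3 and 25.7 in cpr5scv1, and 20.8 and 32.02 in cpr5npr1svi1. Replicate 1 of cpr5 lay below background and the other 11 arrays above it, at 10.0 to 38.7. The 4 arrays of cpr5scv1 and cpr5npr1svi1 lay above all arrays of WT, cpr5 and npr1, as in 3.94% of all probe sets tested, while the arrays of cpr5npr1 and npr1 overlapped. This split was also chosen after the values were seen, and it leaves out cpr5npr1.

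The largest THI2.1 differences were against cpr5, where its mean was lowest at 10.2 ± 4.03 (SD, n = 2). It was 1.63 log2 units higher in cpr5scv1 (SE 0.49, unadjusted p = 0.00685, limma adjusted p = 0.183) and 1.43 higher in cpr5npr1 (SE 0.49, unadjusted p = 0.0137, limma adjusted p = 1.000). The interaction of cpr5 and npr1, the extent to which the effect of cpr5 differs with and without npr1, was 1.62 (unadjusted p = 0.0392, limma adjusted p = 1.000). None of these passed once adjusted over all probe sets. The order was cpr5, npr1, WT, cpr5npr1svi1, cpr5npr1 and cpr5scv1, and neighbours in it did not differ beyond the spread (adjusted p from 0.399 to 1.000).

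THI2.2 signal was 291 and 1137 in WT and 902 and 822 in npr1. It was 125 and 68.1 in cpr5, 75.3 and 116 in cpr5npr1, 166 and 187 in cpr5scv1, and 102 and 101 in cpr5npr1svi1. All 4 arrays without cpr5 (median 862) lay above all 8 arrays with cpr5 (median 109), and no array was near background. Of all probe sets tested, 818 (5.14%) separated the arrays in this way and direction.

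Against WT, THI2.2 fell by 2.64 log2 units in cpr5 (SE 0.51, limma adjusted p = 0.00911), which made 1 of the 4 members called where 8.71% of all probe sets were called and 2.15% were called as lower. It also fell by 2.62 in cpr5npr1 (adjusted p = 0.00955), where 1 of the 4 members and 8.14% of all probe sets were called, 2.05% as lower. In cpr5npr1svi1 its change was -2.50 (adjusted p = 0.00982), with 1 of the 4 members and 12.0% of all probe sets called, 4.08% as lower. In cpr5scv1 it fell by 1.71 (adjusted p = 0.0336), with 1 of the 4 members and 22.4% of all probe sets called, 9.55% as lower. These comparisons share the same WT arrays, which differed by 1.97 log2 units from each other in this gene, more than in 98.1% of probe sets. Without replicate 1 of WT the changes were -3.63 in cpr5, -3.61 in cpr5npr1, -3.48 in cpr5npr1svi1 and -2.69 in cpr5scv1, and without replicate 2 of WT they were -1.66, -1.64, -1.52 and -0.73.

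The npr1 arrays, which differed by only 0.13, gave a second reference for the effect of cpr5. THI2.2 fell by 3.20 log2 units in cpr5npr1 against npr1 (SE 0.51, 95% interval -4.32 to -2.09, limma adjusted p = 0.00400), and 5.12% of all probe sets and 1 of the 4 members were called there, with 0.798% of all probe sets called as lower. The change was -3.58 within replicate 1 and -2.83 within replicate 2, beside -1.22 and -4.06 for cpr5 against WT. The test of any difference among the 6 genotypes called THI2.2 alone of the 4 (adjusted p = 0.00289; 16.8% of all probe sets were called), with adjusted p of 0.475 for PDF1.2, 0.372 for PDF1.2b and 0.146 for THI2.1.

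No difference in THI2.2 passed for npr1, scv1 or svi1 against the genotype without that mutation. The comparison of npr1 with WT gave 0.58 (95% interval -0.53 to 1.70, adjusted p = 0.995; 0 of 4 members called, none at an unadjusted p below 0.05, and 0.00628% of all probe sets). That of cpr5npr1 with cpr5 gave 0.020 (-1.10 to 1.14, adjusted p = 1.000; 0 of 4 members called, THI2.1 at an unadjusted p below 0.05, and 0.044% of all probe sets). The interaction was -0.56 (-2.14 to 1.02, adjusted p = 1.000; 0 of 4, THI2.1 at an unadjusted p below 0.05, and 0.0251% of all probe sets).

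THI2.2 was 0.93 higher in cpr5scv1 than in cpr5 (-0.18 to 2.05, adjusted p = 0.542), a comparison in which 0 of 4 members and 0.804% of all probe sets were called and THI2.1 had an unadjusted p below 0.05. It was 0.12 higher in cpr5npr1svi1 than in cpr5npr1 (-0.99 to 1.24, adjusted p = 0.981), where 0 of 4 members and 1.15% of all probe sets were called and no member had an unadjusted p below 0.05. A p that misses the threshold does not show that these genotypes have the same level, and each interval above still holds changes of 1 log2 unit. The order was cpr5, cpr5npr1, cpr5npr1svi1, cpr5scv1, WT and npr1, and the step from cpr5scv1 to WT was the only one between neighbours that passed.

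**Figure D3:**
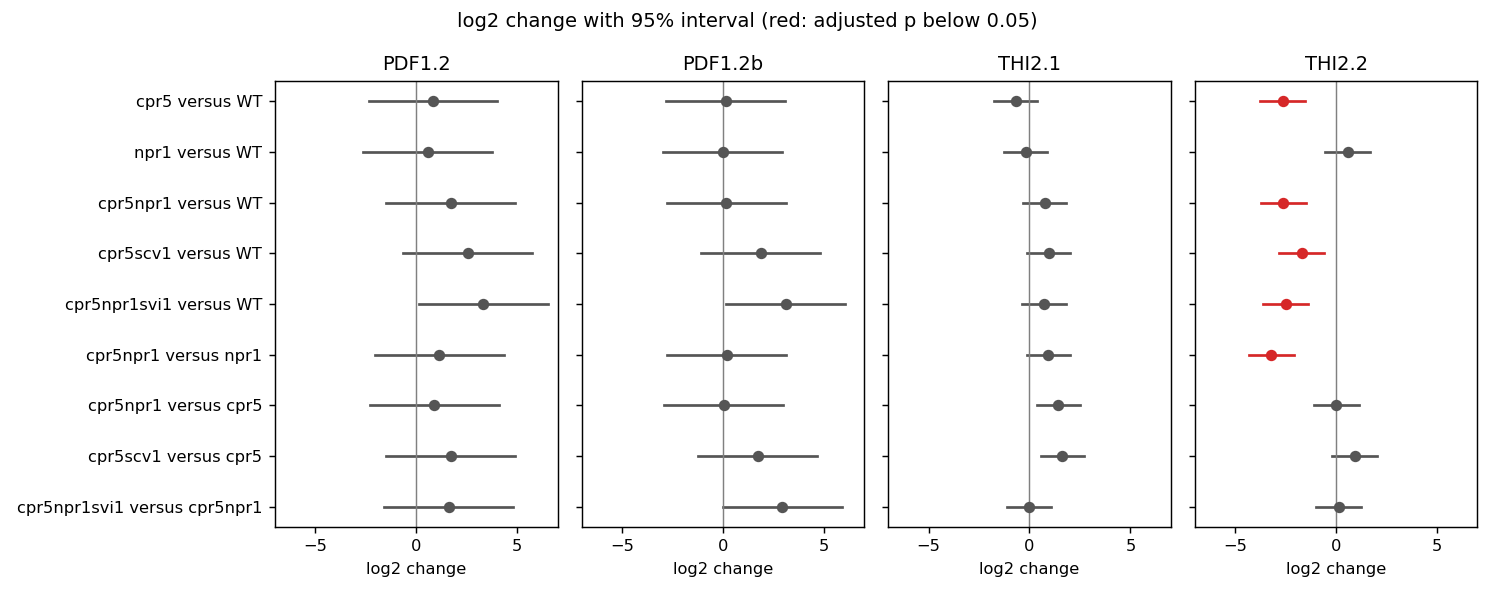
Difference in log2 signal (points) with its 95% interval (lines) for the 4 members in 9 comparisons, first genotype minus second; red marks an adjusted p below 0.05 in limma. THI2.2 is red in 5 comparisons, each of a genotype with cpr5 against one without it, and the intervals of PDF1.2 and PDF1.2b are several log2 units wide.

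The THI2.2 calls rested on few arrays. The fall in cpr5scv1 against WT was -0.73 without replicate 2 of WT (adjusted p = 0.165), and it also missed the threshold without either cpr5scv1 array (0.143 and 0.102) and with no intensity trend (0.0531). Leaving out 1 array ended the call of cpr5 against WT (without replicate 2 of cpr5, adjusted p = 0.0846), of cpr5npr1 against npr1 (without replicate 1 of cpr5npr1, 0.0564), and of cpr5npr1 against WT (without the same array, 0.102). For cpr5npr1svi1 against WT either cpr5npr1svi1 array ended it (0.0505 and 0.0653). Fitted on only the groups compared, none of the 4 falls against WT passed (0.0976 in cpr5, 0.0930 in cpr5npr1, 0.0651 in cpr5npr1svi1 and 0.107 in cpr5scv1), whereas that of cpr5npr1 against npr1 did (0.000846). Without replicate 2 of WT, THI2.2 was 1.56 higher in npr1 than in WT (adjusted p = 0.0483), a value that rests on 1 WT array and takes its spread from the other genotypes alone.

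Replicate 1 of WT stood apart in a further thionin gene. AT1G66100 had a signal of 13.3 in that array and 1937 in replicate 2 of WT, a difference of 7.18 log2 units that only 1 other probe set exceeded between these arrays. In the other 11 arrays it lay between 329 and 2130, with a median of 1375. THI2.2 (291 against 1137) and PYK10 (165 against 773) were also lower in replicate 1 of WT, whereas EXPA7, the other named root marker, was at 10.5 there against 2.00. The part of tissue composition in these differences was not tested.

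AT1G66100 was not called in any of the 10 comparisons over all 12 arrays (adjusted p = 0.643 for cpr5npr1 against npr1). Without replicate 1 of WT it was -1.32 in cpr5 and -2.31 in cpr5npr1 against WT, and without replicate 2 of WT it was 5.87 and 4.88, so its direction against WT depends on which single WT array is kept. These 4 values are descriptions with no test. Leaving out either WT array takes the difference between the WT arrays out of the shared spread. The calls given next, with replicate 1 of WT left out, were also made with replicate 2 of WT left out instead. Of the 4 comparisons that do not use WT, 3 passed with replicate 1 of WT left out, and that of cpr5npr1 with cpr5 did not (-0.99, adjusted p = 0.363). Signal was 467 and 329 in cpr5npr1 against 1375 and 1293 in npr1, a difference of -1.77 (adjusted p = 0.000820 without replicate 1 of WT), and 1484 and 2130 in cpr5npr1svi1, a difference of 2.18 from cpr5npr1 (0.00313). In cpr5scv1 it was 1987 and 1845 against 865 and 697 in cpr5, a difference of 1.301 (0.0209).

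Of 11 other defensin genes, 8 had a named probe set and 3 passed the filter. The others (PDF1.1, PDF2.1, PDF2.4, PDF2.5 and PDF2.6) had signals between 0.19 and 12.0. PDF2.2 and PDF2.3 lay between 468 and 689 and between 305 and 863. Their differences over the 10 comparisons did not pass in the fit of genotype means to the deposited signal without a block (limma). With the replicate block PDF2.3 was lower in cpr5 (-0.63, adjusted p = 0.0462) and in cpr5scv1 (-0.64, 0.0256) than in WT. With that block PDF2.2 was 0.38 higher in cpr5scv1 than in WT (0.0481). The PDF2.2 difference also passed with quantile scaling and no block, but not with the npr1 genotype left out and the block added.

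PDF1.4, a relative of PDF1.2, was higher than in WT in all 4 genotypes with cpr5, and the difference was called in 3 of them. Its signal was 14.3 and 10.8 in WT, 13.8 and 19.0 in npr1, 53.6 and 30.2 in cpr5, and 49.6 and 45.6 in cpr5npr1. It was 100 and 43.3 in cpr5scv1 and 24.6 and 34.2 in cpr5npr1svi1, so all 8 arrays with cpr5 lay above all 4 without it, as in 9.31% of all probe sets tested. Of the 3 defensins tested, PDF1.4 was the 1 called against WT in cpr5 (1.69, SE 0.42, limma adjusted p = 0.0314), cpr5npr1 (1.93, 0.0177) and cpr5scv1 (2.41, 0.00246). Of all probe sets tested, 8.71%, 8.14% and 22.4% were called in these comparisons. The median change of the 3 defensins was 0.099, 0.38 and 0.38 and that of all probe sets 0.024, 0.037 and -0.012. The difference of cpr5npr1 from npr1 was 1.55 (adjusted p = 0.0622, with the block 0.0329), and that of cpr5npr1svi1 from WT was 1.22 (0.0890). The call in cpr5 was lost without replicate 1 of cpr5 or either WT array (adjusted p up to 0.221), and with quantile scaling, 16 or 32 added to the signal or only the groups compared (up to 0.0976). The call in cpr5npr1 was lost without replicate 2 of WT or either cpr5npr1 array (up to 0.124). That in cpr5scv1 held in all 12 fits with 1 array left out, at 1.80 without replicate 1 of cpr5scv1 and 3.01 without replicate 2.

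The jasmonate, ethylene and salicylate pathways could be read only in part, because most of their genes had no named probe set. Of 14 jasmonate synthesis genes 2 were tested, of 17 genes for the receptor, the JAZ repressors and the MYC factors 2, of 13 ethylene signalling genes 1, and of 5 regulators on the salicylate side that are reported to repress PDF1.2 1. None of 6 MYC-branch targets and none of 7 ERF-branch regulators and targets was named, so the transcription factors closest to PDF1.2 are not analysed here.

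OPCL1, a CoA ligase of jasmonate synthesis, had signals of 82.4 and 114 in WT and 74.2 and 140 in npr1, against 255 and 231 in cpr5scv1 and 222 and 270 in cpr5npr1svi1. It was 1.33 log2 units above WT in cpr5scv1 (SE 0.28, limma adjusted p = 0.00660) and 1.34 above in cpr5npr1svi1 (adjusted p = 0.0112). Of all probe sets tested, 22.4% and 12.0% were called in these comparisons. The first call was lost without replicate 1 of cpr5scv1 (0.0515), the second without replicate 1 of WT or replicate 2 of cpr5npr1svi1 (up to 0.0953). Its values were 131 and 162 in cpr5 and 127 and 126 in cpr5npr1, and neither genotype passed against WT. Against cpr5npr1, cpr5npr1svi1 was 0.96 higher (adjusted p = 0.162, with the block 0.0372). JMT, which makes methyl jasmonate, was dim, at 4.67 to 30.6, and was called in none of the 10 comparisons. Its mean signal was 22.5 in WT, 23.8 in npr1, 12.5 in cpr5, 9.49 in cpr5npr1, 9.27 in cpr5scv1 and 23.4 in cpr5npr1svi1. In cpr5scv1 its difference from WT was -1.44 (limma adjusted p = 0.0822), opposite in sign to that of OPCL1. It passed in 1 of 10 alternative settings, median scaling.

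EIN3, the central transcription factor of ethylene signalling, had signals of 235 and 269 in WT, 433 and 524 in cpr5scv1 and 351 and 510 in cpr5npr1svi1. It was 0.92 above WT in cpr5scv1 (SE 0.19, limma adjusted p = 0.00661) and 0.75 above in cpr5npr1svi1 (adjusted p = 0.0302), where 22.4% and 12.0% of all probe sets were called. The first call was lost without replicate 2 of cpr5scv1 (0.0601). The second was lost without replicate 1 of WT or replicate 2 of cpr5npr1svi1 (up to 0.233), and with median scaling, without the intensity trend or on the compared groups alone (up to 0.156). In cpr5, at 366 and 420, it was 0.64 above WT (adjusted p = 0.0689, with the block 0.0123). MYC3 and MYC4, which act in the other jasmonate branch, lay between 55.1 and 102 and between 37.4 and 72.9 and were called in none of the 10 comparisons.

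**Figure D4:**
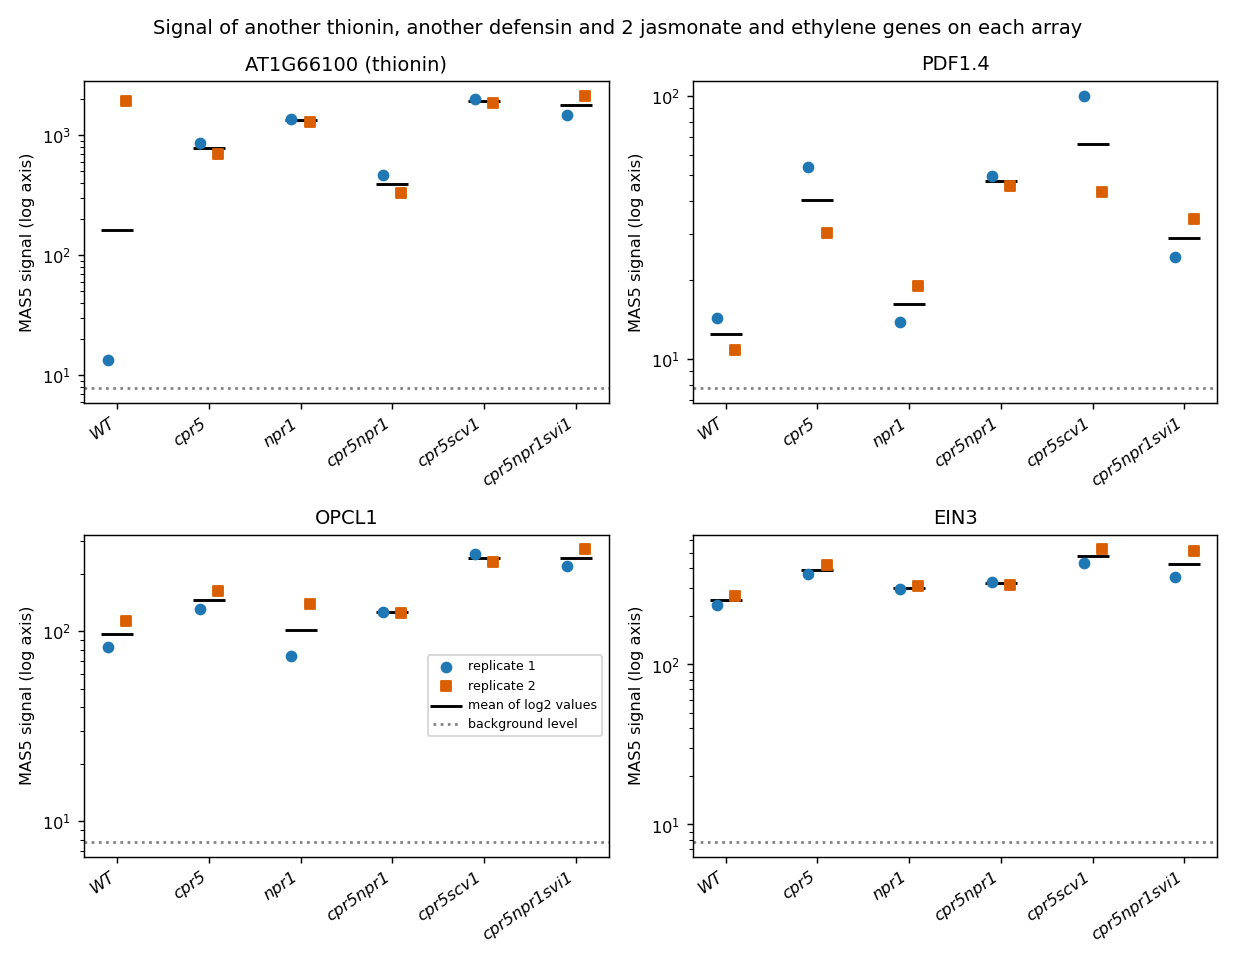
MAS5 signal (log axis) of the thionin AT1G66100, the defensin PDF1.4, the jasmonate synthesis gene OPCL1 and the ethylene factor EIN3 on each array, by genotype; circles are replicate 1, squares replicate 2, bars the mean of the log2 values and the dotted line the background signal. Replicate 1 of WT lies at 13.3 for AT1G66100 while the other 11 arrays lie between 329 and 2130, and PDF1.4 is higher in all arrays with cpr5.

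GRX480, a glutaredoxin reported to repress PDF1.2 when salicylic acid is present, had signals of 23.1 and 13.2 in WT and 132 and 139 in cpr5. It was 201 and 160 in cpr5scv1, 83.3 and 87.9 in cpr5npr1svi1, 82.7 and 46.9 in cpr5npr1, and 5.56 and 37.2 in npr1. Replicate 1 of npr1 lay below background. All 8 arrays with cpr5 lay above all 4 without it, as in 9.31% of all probe sets tested. Called against WT were 8.71% of all probe sets in cpr5, 22.4% in cpr5scv1 and 12.0% in cpr5npr1svi1. In cpr5npr1, GRX480 was 1.84 above WT and 2.11 above npr1, and neither difference passed over all 12 arrays (limma adjusted p = 0.133 and 0.116). The npr1 genotype was left out in some fits after its arrays were seen. GRX480 in cpr5npr1 passed against WT in 3 of 11 alternative settings: with 32 added, and with npr1 left out, without or with the block. Against WT it rose by 2.95 in cpr5 (SE 0.67, limma adjusted p = 0.0211), by 3.36 in cpr5scv1 (0.00511) and by 2.29 in cpr5npr1svi1 (0.0495), the last lost without any 1 of 10 arrays (adjusted p up to 0.197) and with quantile or median scaling, with dim probe sets kept, or without the intensity trend (up to 0.0739). The call in cpr5 was lost without replicate 2 of WT or either cpr5 array (up to 0.109).

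The probe sets whose log2 signal followed each member most closely over the 12 arrays were sought among 8710 named and tested probe sets, as a description with no test. For THI2.2 they were PME61, a pectin methylesterase gene (r = 0.921), AT1G62480 (0.916), WRKY22, a defence transcription factor (0.904), AT5G63040 (0.890) and BGLU33, a beta-glucosidase gene (0.887). PME61 signal was 112 and 146 in WT and 118 and 170 in npr1, against 33.1 to 49.3 in the 8 arrays with cpr5.

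For PDF1.2 they were the protease inhibitor gene SERPIN1 (0.926), PDF1.2b (0.906), AT3G01930 (0.883), AT1G47830 (0.879) and AT1G48440 (0.873). SERPIN1 signal was 115 and 132 in WT, 116 and 170 in npr1 and 165 and 189 in cpr5npr1svi1, a far narrower range than that of PDF1.2, with replicate 2 the higher in these 3 genotypes. For PDF1.2b they were PDF1.2 (0.906), AT5G55290 (0.902), AT1G06630 (0.849), AT3G27290 (0.846) and AT1G76920 (0.842). For THI2.1 they were CYP71B22 (0.857), AT5G60840 (0.849), AT4G22560 (0.830), CCT2 (0.815) and AT2G24830 (0.814), of which CYP71B22 is a cytochrome P450 gene.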

How the data were processed

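The authors deposited MAS5 signal on a linear scale for 22810 probe sets of 12 ATH1 arrays, as stated in the submitters' processing notes; a MAS5 version, detection calls and a scaling target are not given in the sources used. With the lowest and highest 2% left out, the mean deposited signal was 100.01 in every array, so each had been scaled to one mean, and no further normalization was applied. The 64 control sets and the dimmest 30% by mean log2 signal were left out. The number of arrays, not a read depth, limits the precision.

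Probe sets were named through the platform annotation, updated by gene ID to a table of the assembly TAIR10.1, which is used for names only: of 22746, 13513 had 1 gene, 503 several and 8730 none listed. Log2 signal was modelled with limma 3.58.1 under R 4.3.3 (lmFit, then contrasts.fit and eBayes with trend) as 6 group means over 12 arrays, with Benjamini-Hochberg adjustment within each of 10 contrasts and a moderated F test. The code was tested on simulated data with the same spread in all probe sets and independent arrays. That test does not cover probe sets as variable as the defensins or arrays paired by replicate number. Intervals are at 95%.

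The members and lists were chosen with earlier results of these data known. The text names all 4 members, up to 3 called genes of each list and comparison (or 2 by signal), and the 5 named probe sets most correlated with each member; where a gene had several, its brightest probe set was used. AT1G66100 by array, the shared low signals in replicate 1 of WT and the omission of npr1 were followed up after values were seen. Alternatives were quantile and median scaling, no filter or the dimmest 50% left out, 16 or 32 added to the signal, no trend, only the groups compared, a replicate block, and each array left out. Replicate numbers come from the titles; differences between replicates correlated at 0.175 to 0.363 over all 15 pairs of genotypes, above the 0.1 required, so the numbers pair the arrays. The 6 group means without a pairing term remained the main design, and p-values with the replicate number as a block are given where they change a call. The SEs and intervals given therefore include the difference between replicate numbers. The SE of a difference from WT was 1.44 for PDF1.2, 1.33 for PDF1.2b, 0.49 for THI2.1 and 0.51 for THI2.2. With the block it was 0.93, 1.17, 0.49 and 0.48.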

Additional observations from a re-analysis of the deposited data

How the results depend on the processing

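With 2 arrays a genotype, 1 array can decide a call. The size of defensin differences against WT is uncertain, and for PDF1.2 replicate 1 of WT lay below background. Scaling each array to one median moved the WT arrays by 0.13 and 0.15 log2 units, the npr1 arrays by 0.070 and 0.10, and the others by -0.094 to -0.018. The dimmest-50% setting left out PDF1.2, PDF1.2b and THI2.1. Fitted on only the groups compared, the number of the 4 members called against WT was 0 in cpr5, cpr5npr1, cpr5scv1 and cpr5npr1svi1, where it was 1 in each over all arrays; with no intensity trend it was 0 in cpr5scv1. In cpr5npr1svi1 against WT it was 2 with the replicate block, 3 with npr1 left out and 3 with both. With both, it was 2 in cpr5npr1 and 2 in cpr5scv1 against WT; npr1 was left out after its arrays were seen. The replicate block changed no other call of a member. With 1 array left out, the number called ranged from 0 to 1 in cpr5, npr1, cpr5npr1 and cpr5scv1 against WT and in cpr5npr1 against npr1, from 0 to 3 in cpr5npr1svi1 against WT (3 without either npr1 array) and from 1 to 3 over all genotypes (3 without replicate 2 of npr1).

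Of 40 differences of a member, 16 changed sign in at least 1 alternative, none of them called over all arrays or with the changed sign (lowest adjusted p there 0.334). THI2.2 in npr1 against WT was called with its sign kept without replicate 2 of WT (0.0483). For PDF1.2 these were cpr5npr1 against npr1 (-0.073 with 32 added to the signal) and the interaction (-0.25 with 16 and -0.26 with 32). For PDF1.2b they were cpr5 against WT (-0.067 with quantile and -0.050 with median scaling), cpr5npr1 against WT (-0.063 and -0.017), npr1 against WT (0.49 with 16 and 0.45 with 32), cpr5npr1 against npr1 (-0.36 and -0.35) and the interaction (-0.43 and -0.40). With 1 array left out, PDF1.2 ranged from -0.053 to 1.71 in cpr5 against WT, -2.20 to 3.32 in npr1 against WT, -1.61 to 3.91 in cpr5npr1 against npr1 and -2.43 to 3.08 in the interaction. PDF1.2b ranged from -0.067 to 0.36 in cpr5 against WT, -2.55 to 2.53 in npr1 against WT, -2.36 to 2.73 in cpr5npr1 against npr1, -0.67 to 0.73 in cpr5npr1 against cpr5, -0.53 to 0.88 in cpr5npr1 against WT and -2.50 to 2.58 in the interaction. THI2.1 ranged from -0.64 to 0.27 in npr1 against WT and -0.58 to 0.52 in cpr5npr1svi1 against cpr5npr1. THI2.2 ranged from -0.40 to 1.56 in npr1 against WT, -0.42 to 0.45 in cpr5npr1 against cpr5, -0.19 to 0.43 in cpr5npr1svi1 against cpr5npr1 and -1.55 to 0.42 in the interaction. The cause was not tested.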
